A study of Mus musculus with 6 samples.

Results

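Glucocorticoid-induced genes were described in CD11b+ cells enriched from mouse brain, library by library. The 9 genes are *Ddit4*, *Tsc22d3*, *Sgk1*, *Klf9*, *Zbtb16*, *Cdkn1a*, *Errfi1*, *Pik3ip1* and *Fam107a*, and each was found by its symbol among the 19225 listed genes. They were chosen from earlier results of the same 6 libraries, so their levels, their differences between the labels and their correlations are given as descriptions, without a test. Of the 9 genes, 5 (*Ddit4*, *Tsc22d3*, *Sgk1*, *Klf9* and *Fam107a*) passed the filter on low values, an average of 10 cpm or more over the 6 libraries (cpm is the number of reads scaled to the size of the library), and 4 did not. The name under which the genes were grouped says that they vary together across libraries, and the data went against it. *Ddit4*, *Tsc22d3* and *Sgk1* were high in the same libraries, *Klf9* and *Fam107a* were low and high in other libraries, *Zbtb16*, *Cdkn1a* and *Pik3ip1* were nearer to the latter by rank, and *Errfi1* followed neither.

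The study asked whether microglia of mice without cannabinoid receptor 1, which is encoded by *Cnr1*, differ in gene expression before any stress. Cells came from 3 *Cnr1*+/+ mice (labelled C57BL6/J, wt/wt) and 3 *Cnr1*-/- mice (labelled Cnr1 tm1Zim, d/d), all male, labelled as aged 3 months and not stressed, with 1 library per mouse. The deletion is present in every cell of the body from conception, so a difference in microglia need not arise in microglia. Brains of perfused mice were dissociated mechanically, myelin was removed on Percoll, and cells were captured with magnetic beads against CD11b, which neutrophils and monocytes carry as well. Sequencing started from the 3′ end of poly(A) RNA.

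Corticosterone, the main glucocorticoid of mice, crosses the cell membrane and binds the glucocorticoid receptor, which chaperones hold in the cytoplasm. The bound receptor moves to the nucleus and binds DNA, often at a palindromic pair of short motifs, and switches on genes that dampen inflammation, restrain growth signalling and shift metabolism. Microglia carry much receptor, and astrocytes and endothelial cells of the brain also answer glucocorticoids strongly. Most of the induced genes answer other signals too: *Ddit4* answers low oxygen and amino acid shortage, and *Cdkn1a* answers DNA damage.

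Stretches upstream of 1 start each of *Sgk1*, *Tsc22d3*, *Fam107a* and *Ddit4*, for the first 3 genes a start whose window holds the letters, are printed to show where the letters of the receptor's short motif occur, because *Ddit4*, *Tsc22d3* and *Sgk1* moved together and *Fam107a* did not follow them. Sequences are those of RefSeq (GRCm38.p6, the build named mm10), 5′ to 3′ on the gene's strand, and leave out bases of annotated exons. Capitals mark the short motif AGAACA or its reverse complement TGTTCT, and the paired form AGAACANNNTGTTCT, which reads the same on both strands and contains both.
Sgk1 (chr10:21993640-21993889, plus strand): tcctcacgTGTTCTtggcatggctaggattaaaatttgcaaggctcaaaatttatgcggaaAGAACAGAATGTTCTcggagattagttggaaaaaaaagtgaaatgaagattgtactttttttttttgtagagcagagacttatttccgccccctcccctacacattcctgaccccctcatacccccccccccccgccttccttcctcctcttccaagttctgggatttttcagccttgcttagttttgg
Tsc22d3 (chrX:140600660-140600772, minus strand): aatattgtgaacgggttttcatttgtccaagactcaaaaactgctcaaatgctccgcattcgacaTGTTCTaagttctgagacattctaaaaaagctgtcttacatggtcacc
Fam107a (chr14:8309796-8310029, minus strand): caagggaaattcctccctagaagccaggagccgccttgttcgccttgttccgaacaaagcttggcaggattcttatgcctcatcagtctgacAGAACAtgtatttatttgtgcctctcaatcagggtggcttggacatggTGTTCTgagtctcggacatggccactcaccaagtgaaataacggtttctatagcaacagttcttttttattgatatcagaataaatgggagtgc
Ddit4 (chr10:59951835-59952020, minus strand): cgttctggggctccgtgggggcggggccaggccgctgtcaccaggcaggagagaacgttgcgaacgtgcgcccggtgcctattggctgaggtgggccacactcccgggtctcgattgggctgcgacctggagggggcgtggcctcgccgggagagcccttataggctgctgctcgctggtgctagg
Windows from 250 bases before to 50 bases after a start were given for 8 of the 9 genes, 19 windows in all, and *Zbtb16* had none. The paired form occurred in 3 of all 32851 windows (0.00913%), and 1 of these was the window of *Sgk1* printed above, where it lay 175 to 189 bases before that start (chr10:21993701-21993715). The short motif on either strand was found in 19.0% of all windows and in 6 of the 19 windows of these genes, which were 3 of the 6 windows of *Sgk1*, 1 of the 3 of *Tsc22d3* and 2 of the 3 of *Fam107a*. The other windows of these genes held no match. Both windows of *Fam107a* with a match cover nearly the same bases and hold the same matches, so that stretch is counted once for each window. In the windows printed, the motif lay 180 to 185 bases before the start in *Tsc22d3*, and in *Fam107a* there was 1 at 153 to 158 and another at 105 to 110 bases before it. The window of *Ddit4* held neither form. These are matches of letters, and no binding was measured.

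The effective library size, which is the size after the authors' TMM scaling and not the number of reads sequenced, was between 7708812 and 10723821 reads as derived from the value of 1 read, so that a value of 0 allows up to 0.280 to 0.389 cpm depending on the library. *Cnr1* itself was at 0 in all 3 libraries labelled *Cnr1*+/+ and at 1.41, 1.21 and 1.79 cpm in replicates 1, 2 and 3 labelled *Cnr1*-/-. This goes against the labels, although reads from the 3′ end may lie outside the deleted part, and every direction below is given by the label of a library. The summed level of 10 microglia markers lay between 14349 and 16570 cpm, and all 10 were listed. The library labelled *Cnr1*-/- replicate 2 stood apart, with 3952 cpm of 9 neutrophil markers against 258 to 512 cpm in the other libraries, and 2330 cpm of 5 erythrocyte markers against 136 to 237 cpm.

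*Ddit4* encodes an inhibitor of mTOR signalling that is induced by many kinds of cell stress (chr10:59949669-59951834, minus strand). Its level was 44.6, 30.9 and 86.7 cpm in replicates 1, 2 and 3 labelled *Cnr1*+/+ and 214, 184 and 61.9 cpm in replicates 1, 2 and 3 labelled *Cnr1*-/-. Replicates 1 and 2 labelled *Cnr1*-/- were far above the other 4 libraries, whereas replicate 3 labelled *Cnr1*-/- lay below replicate 3 labelled *Cnr1*+/+, so the groups overlapped. The 95% counting intervals of the latter pair, 56.7 to 67.5 cpm and 80.8 to 92.8 cpm, did not meet. In a library of many cells, fewer cells of a type and less RNA per cell cannot be told apart.

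*Tsc22d3* encodes the glucocorticoid-induced leucine zipper, which restrains inflammatory transcription factors (chrX:140539528-140600659, minus strand). It was at 30.1, 29.9 and 36.8 cpm in the libraries labelled *Cnr1*+/+ and at 50.6, 62.3 and 34.0 cpm in those labelled *Cnr1*-/-, in the order of replicates. Again replicates 1 and 2 labelled *Cnr1*-/- were highest, and replicate 3 labelled *Cnr1*-/- lay inside the range of the libraries labelled *Cnr1*+/+. *Sgk1* encodes a serum- and glucocorticoid-regulated kinase that controls ion channels and transporters (chr10:21882184-21999903, plus strand). Its values were 99.4, 89.3 and 96.0 cpm in the libraries labelled *Cnr1*+/+ and 138, 136 and 95.4 cpm in those labelled *Cnr1*-/-, with the same pair of libraries on top and the third inside the range of the other label. The lowest of the 6 libraries was replicate 2 labelled *Cnr1*+/+ for all 3 genes.

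**Figure D1:**
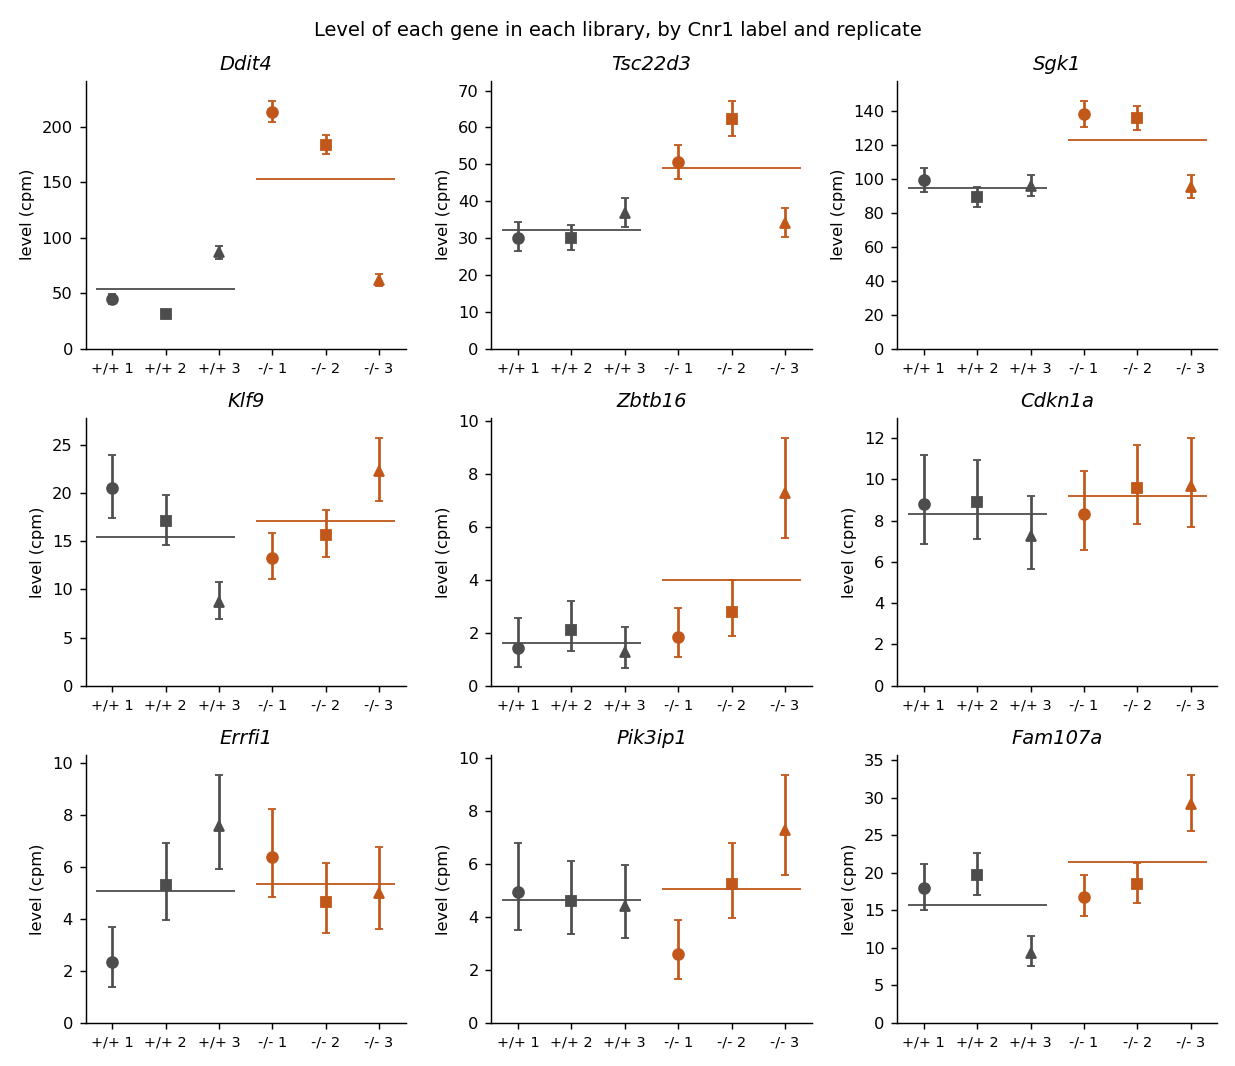
Level of each of the 9 genes (cpm, y axis from 0) in each library (x axis, Cnr1 label and replicate number). Points are libraries, bars are 95% counting intervals and horizontal lines are the means of each label. *Ddit4*, *Tsc22d3* and *Sgk1* are high in the libraries labelled *Cnr1*-/- replicates 1 and 2, whereas *Klf9* and *Fam107a* are lowest in *Cnr1*+/+ replicate 3 and highest in *Cnr1*-/- replicate 3.

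*Klf9*, a zinc finger transcription factor, and *Fam107a*, an actin-binding protein that astrocytes express strongly, had another order. *Klf9* (chr19:23141226-23168134, plus strand) was at 20.5, 17.1 and 8.73 cpm in the libraries labelled *Cnr1*+/+ and at 13.3, 15.7 and 22.3 cpm in those labelled *Cnr1*-/-. *Fam107a* (chr14:8296274-8318023, minus strand) was at 17.9, 19.7 and 9.36 cpm and at 16.8, 18.5 and 29.1 cpm, respectively. Both were lowest in replicate 3 labelled *Cnr1*+/+ and highest in replicate 3 labelled *Cnr1*-/-, the library in which *Ddit4*, *Tsc22d3* and *Sgk1* were not raised.

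*Zbtb16* and *Cdkn1a* had their lowest and highest value in the same libraries, although for *Cdkn1a* the differences were within counting error. *Zbtb16*, a transcriptional repressor (chr9:48654297-48836222, minus strand), was at 1.43, 2.10 and 1.26 cpm in the libraries labelled *Cnr1*+/+ and at 1.84, 2.80 and 7.27 cpm in those labelled *Cnr1*-/-, from 11 to 61 reads per library. Replicate 3 labelled *Cnr1*-/- stood alone, and its counting interval of 5.56 to 9.34 cpm lay above those of the other 5 libraries. *Cdkn1a*, an inhibitor of cyclin-dependent kinases (chr17:29090976-29100727, plus strand), ranged only from 7.26 to 9.66 cpm, from 68 to 103 reads per library. The counting intervals of its lowest and highest library overlapped, so differences of *Cdkn1a* between libraries were not detectable at this depth. For the other 8 genes the intervals of the lowest and highest library were apart.

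*Pik3ip1* and *Errfi1* encode inhibitors of growth signalling, the former of phosphoinositide 3-kinase and the latter of the epidermal growth factor receptor. *Pik3ip1* (chr11:3330401-3342971, plus strand) was at 4.93, 4.59 and 4.42 cpm in the libraries labelled *Cnr1*+/+ and at 2.598, 5.22 and 7.27 cpm in those labelled *Cnr1*-/-, so that the lowest and the highest value carried the same label. *Errfi1* (chr4:150853919-150868892, plus strand) was at 2.33, 5.29 and 7.57 cpm in the libraries labelled *Cnr1*+/+ and at 6.39, 4.66 and 5.01 cpm in those labelled *Cnr1*-/-. Here the lowest and the highest value both came from libraries labelled *Cnr1*+/+. Over all 9 genes, the highest value was in replicate 3 labelled *Cnr1*-/- for 5 genes, and the lowest was in replicate 3 labelled *Cnr1*+/+ for 4.

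Differences between the labels followed from these orders. On the scale of log2 (cpm + 0.1), the mean of the libraries labelled *Cnr1*-/- exceeded that of the libraries labelled *Cnr1*+/+ by 1.45 ± 0.71 (SE from the spread of the gene's own libraries, n = 3 per label) for *Ddit4*, 0.56 ± 0.27 for *Tsc22d3* and 0.36 ± 0.18 for *Sgk1*. The difference was 0.48 ± 0.41 for *Fam107a*, 0.20 ± 0.43 for *Klf9* and 1.06 ± 0.61 for *Zbtb16*. It was 0.15 ± 0.12 for *Cdkn1a*, 0.22 ± 0.51 for *Errfi1* and -0.00 ± 0.43 for *Pik3ip1*. The labels' values overlapped for all 9 genes (they did not overlap for 11% of the 6659 genes that passed the filter), and because the genes were chosen from this contrast, nothing is read from this count.

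Single libraries decided several of these differences. Without replicate 3 labelled *Cnr1*-/-, the difference of *Ddit4* was 2.01, that of *Tsc22d3* 0.80 and that of *Sgk1* 0.53, whereas that of *Zbtb16* was 0.52, that of *Fam107a* 0.24 and that of *Klf9* -0.01. Without replicate 3 labelled *Cnr1*+/+ the difference was 0.15 for *Fam107a*, 0.05 for *Cdkn1a*, -0.16 for *Klf9* and 0.58 for *Errfi1*. Without replicate 1 labelled *Cnr1*+/+ that of *Errfi1* was -0.25 and that of *Klf9* 0.45. *Klf9* was at 0.36 without replicate 1 labelled *Cnr1*-/-. *Tsc22d3* was at 0.37 without replicate 2 labelled *Cnr1*-/-, the library with the neutrophil markers. The difference of *Pik3ip1* was between -0.32 and 0.40 with single libraries left out. *Ddit4*, *Tsc22d3*, *Sgk1*, *Fam107a*, *Zbtb16* and *Cdkn1a* stayed above 0 with each library left out.

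**Figure D2:**
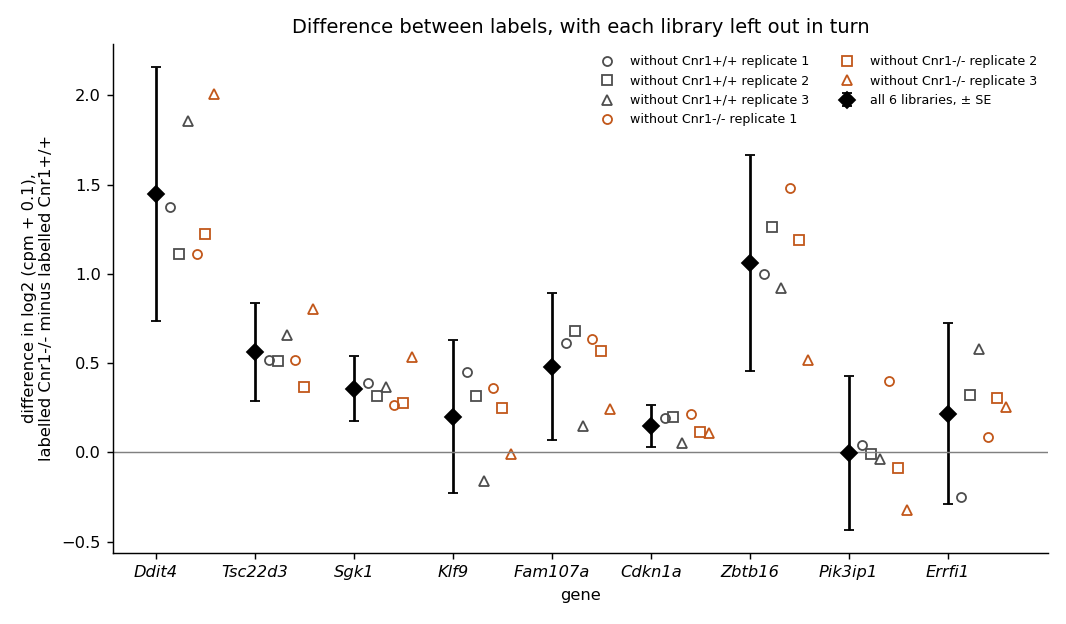
Difference in log2 (cpm + 0.1) between libraries labelled *Cnr1*-/- and *Cnr1*+/+ (y axis) for each gene (x axis). Filled diamonds use all 6 libraries, with bars of 1 SE from the gene's own spread, and open symbols leave out 1 library each. Leaving out *Cnr1*-/- replicate 3 raises *Ddit4* to 2.01 and lowers *Zbtb16* to 0.52.

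How the genes varied with each other was measured by Pearson r and Spearman rho of log2 (cpm + 0.1) over the 6 libraries. Since the genes were chosen for this, r is a description, and all pairs share the 6 libraries. Of the 36 pairs, 20 had a positive r and 16 a negative one, 7 were over 0.8, and the range was -0.71 to 0.94. The median over the 36 pairs was 0.09, against 0.18 over all 22167811 pairs of genes that passed the filter. Over the 10 pairs of the 5 genes that passed it was -0.07. The 9 genes as a whole therefore did not have a higher median r than pairs of genes in general.

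*Ddit4*, *Tsc22d3* and *Sgk1* were close to each other, with a Pearson r (n = 6) of 0.94 for *Ddit4* and *Tsc22d3* (rho 0.94), 0.92 for *Ddit4* and *Sgk1* (rho 0.83) and 0.93 for *Tsc22d3* and *Sgk1* (rho 0.77). After the mean of each label was subtracted, their median r was 0.86. Without the pair of libraries farthest from the median of the first gene, which were replicates 1 and 2 labelled *Cnr1*-/-, r was 0.95, 0.53 and 0.24 for these pairs, so the relations to *Sgk1* rested on those libraries. *Klf9*, *Fam107a*, *Cdkn1a* and *Zbtb16* had a median r of 0.85, with 0.92 for *Klf9* and *Fam107a* (rho 0.83) and 0.91 for *Cdkn1a* and *Fam107a* (rho 0.94). Without replicate 3 of either label, the libraries farthest out for these genes, r was 0.44 and 0.56 for these pairs, 0.26 for *Klf9* and *Cdkn1a*, 0.37 for *Zbtb16* and *Fam107a*, 0.70 for *Zbtb16* and *Cdkn1a* and -0.47 for *Klf9* and *Zbtb16*, so most of these relations rested on those libraries. These 2 groups of genes were formed after the values were seen. Between them the median r of the 12 pairs was -0.06, and -0.76 after the mean of each label was subtracted. *Errfi1* had its lowest r with *Klf9* (-0.71), and *Pik3ip1* had its highest with *Zbtb16* (0.64). By rank *Pik3ip1* was near the second group, with a rho of 0.89 with *Cdkn1a*, 0.77 with *Klf9* and with *Fam107a*, and 0.71 with *Zbtb16*, against 0.60 for *Klf9* and *Zbtb16* themselves.

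**Figure D3:**
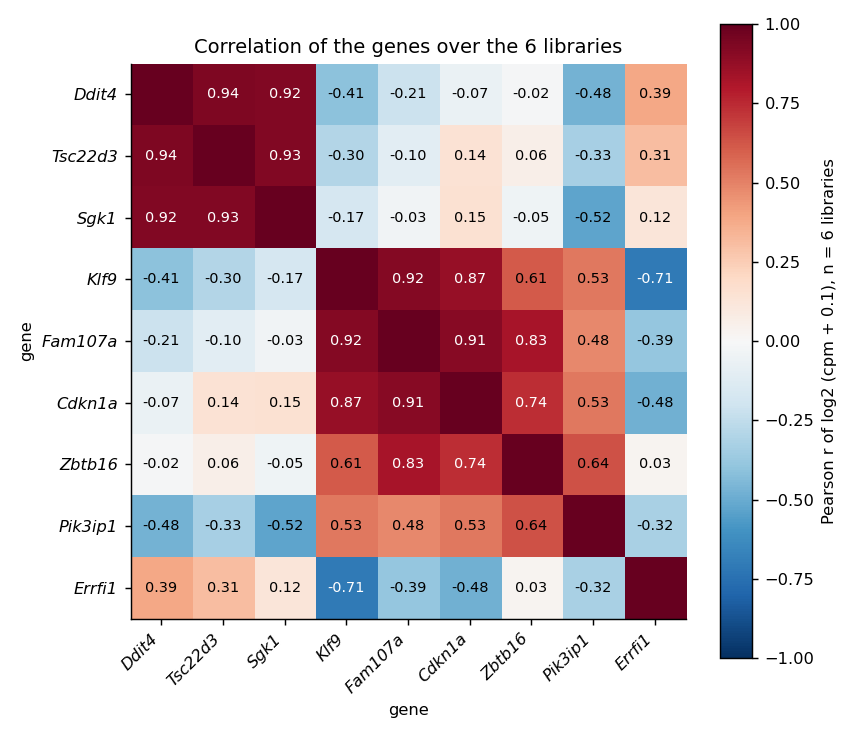
Pearson r between the 9 genes over the 6 libraries, on log2 (cpm + 0.1), with rows and columns as genes and colour from -1 to 1. One block holds *Ddit4*, *Tsc22d3* and *Sgk1* (r 0.92 to 0.94) and another *Klf9*, *Fam107a*, *Cdkn1a* and *Zbtb16* (r 0.61 to 0.92), with values near or below 0 between them.

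Markers of other cell types varied over the same libraries. The summed level of 6 astrocyte markers was 427, 471 and 298 cpm in the libraries labelled *Cnr1*+/+ and 387, 480 and 549 cpm in those labelled *Cnr1*-/-, lowest and highest in the same libraries as *Klf9* and *Fam107a*. Over the 6 libraries its Pearson r was 0.97 with *Fam107a* (rho 0.94), 0.90 with *Klf9* (rho 0.77), 0.97 with *Cdkn1a* (rho 1.00) and 0.80 with *Zbtb16* (rho 0.94), where the differences of *Cdkn1a* were not detectable at this depth. Without the pair of libraries farthest from the median, r was 0.89 for *Fam107a*, 0.35 for *Klf9*, 0.87 for *Cdkn1a* and 0.64 for *Zbtb16*. All 6 markers were above 0 in every library. *Slc1a2*, a glutamate transporter, was at 102 cpm in replicate 3 labelled *Cnr1*+/+ and at 158 to 235 cpm elsewhere, whereas *Aqp4* and *Gja1*, a water channel and a gap junction protein, were at 2.24 to 6.08 cpm and 6.25 to 10.8 cpm and had another order. The part of astrocyte RNA in the levels of these genes was not tested. With *Ddit4*, *Tsc22d3* and *Sgk1* the astrocyte sum had an r between -0.23 and -0.03.

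The neutrophil sum had an r of 0.62 with *Ddit4* (rho 0.77), 0.82 with *Tsc22d3* (rho 0.83) and 0.75 with *Sgk1* (rho 0.94), and without the pair of libraries farthest from its median r was 0.32, 0.33 and 0.70. Its values were 484, 258 and 282 cpm in the libraries labelled *Cnr1*+/+ and 512, 3952 and 260 cpm in those labelled *Cnr1*-/-. The part of neutrophil RNA in the levels of these genes was not tested. Other sums varied with *Ddit4*, *Tsc22d3* and *Sgk1* as well. In this order r was 0.50, 0.74 and 0.63 for erythrocyte, 0.50, 0.76 and 0.64 for monocyte and -0.52, -0.69 and -0.78 for border macrophage markers. Without the pair of libraries farthest from the median of the sum, r was 0.74, 0.82 and 0.92 for erythrocyte and 0.07, 0.17 and 0.29 for monocyte markers. In all, 90 correlations of the 9 genes with 10 marker sums were computed, and they share 6 libraries. *Pik3ip1* had an r of 0.82 with the sum of 6 oligodendrocyte markers, which ranged from 420 to 853 cpm, and *Ddit4* had -0.79.

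**Figure D4:**
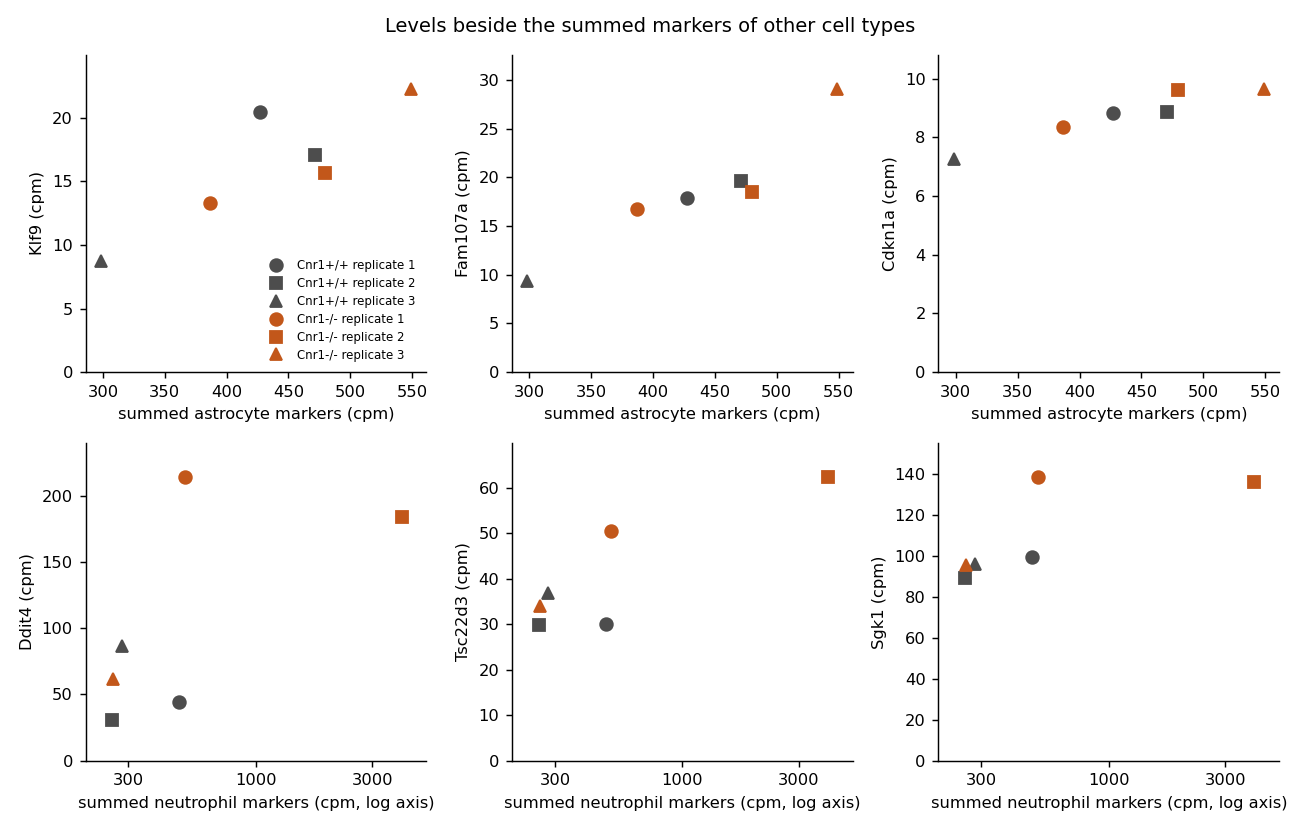
Level of a gene (cpm, y axis) against the summed markers of another cell type (cpm, x axis, logarithmic for neutrophils) in the 6 libraries, which are the points. *Klf9* and *Fam107a* are lowest and highest in the libraries with the lowest and highest astrocyte sum (298 and 549 cpm), *Cdkn1a* varies within counting error, and *Ddit4*, *Tsc22d3* and *Sgk1* are high in 2 libraries whose neutrophil sums are 512 and 3952 cpm.

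Other genes known to be induced by glucocorticoids were examined in a list of 32 that holds none of the 9. Of these, 27 were listed and 18 passed the filter. In the limma fit over all genes, a nominal p under 0.05 was reached by 6 of the 18, all higher in the libraries labelled *Cnr1*-/- (5.09% of all genes), and 0 were lower (0.931% of all genes). The median difference was 0.16 on the log2 scale, against 0.08 over all genes tested, and 15 of the 18 (83.3%) were above 0, against 68.4% of all genes tested. When libraries were centred, quantile normalised or rescaled with mitochondrially encoded genes left out, the median of the list was 0.08, 0.08 and 0.06, and 13, 12 and 12 of its genes were above 0, against 52.0%, 49.7% and 46.3% of all genes. *Irs2*, an adaptor of insulin signalling named after its values were seen, was at -0.37 with a limma p of 0.0940, and it was lower with a nominal p under 0.05 in 4 of 13 alternatives, at -0.45 after centring, -0.44 after quantile normalisation, -0.47 after rescaling and -0.53 without replicate 1 labelled *Cnr1*+/+. The list was chosen with results of these libraries known and is not independent evidence of a direction.

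*Fkbp5*, a co-chaperone that lowers the affinity of the receptor and is itself induced by it, was at 55.1, 25.4 and 33.2 cpm in the libraries labelled *Cnr1*+/+ and at 89.6, 70.7 and 88.1 cpm in those labelled *Cnr1*-/-. It was high in all 3 libraries labelled *Cnr1*-/-, including replicate 3, in which *Ddit4*, *Tsc22d3* and *Sgk1* were not raised, and its groups did not overlap. With all 6 libraries its log2 difference was 1.19 ± 0.20 (limma adjusted p = 0.00565). The ± of list genes is the SE of limma, which draws on the spread of all genes, and is not comparable with the members' SE above. For *Ddit4* the SE of limma was 0.30, against 0.71 from its own libraries. In this fit *Fkbp5* was the 1 gene of the list that changed more than 1.5-fold with an adjusted p under 0.1 (0.0901% of all genes). *Sult1a1*, a sulfotransferase, *Il6ra*, a subunit of the interleukin 6 receptor, and *Rhob*, a small GTPase, had non-overlapping groups as well, with log2 differences of 0.57 ± 0.15, 0.29 ± 0.12 and 0.32 ± 0.13. In all, groups did not overlap for 4 of the 18 tested genes of the list and for 11% of all genes tested. The limma adjusted p were 0.381 for *Sult1a1* and 0.792 for *Il6ra* and *Rhob*. Without replicate 3 labelled *Cnr1*+/+, *Sult1a1* was at 0.72 (limma adjusted p = 0.0610) and passed both thresholds as well. *Il6ra* no longer had a nominal p under 0.05 without replicate 1 labelled *Cnr1*+/+ and without replicate 1 or 2 labelled *Cnr1*-/-, where its log2 differences were 0.20, 0.29 and 0.25. The same held for *Rhob* without replicate 2 labelled *Cnr1*+/+ and without replicate 1 labelled *Cnr1*-/-, where its log2 differences were 0.18 and 0.30. Both also lost the nominal call after quantile normalisation (0.16 for *Il6ra* and 0.21 for *Rhob*), after rescaling (0.19 and 0.22) and without the trend. The log2 difference of *Fkbp5* was 0.94 without replicate 2 labelled *Cnr1*+/+ (limma adjusted p = 0.121). With centring, quantile normalisation, rescaling without mitochondrially encoded genes or no trend it lay between 1.09 and 1.19, and the limma adjusted p were 0.220, 0.259, 0.169 and 0.825, so that *Fkbp5* did not pass the adjusted threshold there.

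*Per1* and *Nfkbia* followed *Ddit4*, *Tsc22d3* and *Sgk1* instead. *Per1*, a clock gene that the receptor induces directly, was at 9.47, 10.4 and 10.9 cpm in the libraries labelled *Cnr1*+/+ and at 22.3, 21.9 and 10.4 cpm in those labelled *Cnr1*-/-, so that replicate 3 labelled *Cnr1*-/- had the level of the other label. *Nfkbia*, an inhibitor of NF-κB, was at 124, 136 and 196 cpm and at 246, 260 and 163 cpm, respectively. Their r with the mean of *Ddit4*, *Tsc22d3* and *Sgk1* was 0.97 and 0.94, and that of *Cebpb*, a transcription factor, was 0.86. An r over 0.8 with this mean was found for these 3 of the 18 genes and for 4.42% of all genes tested, with a median of 0.41 over the 18 and 0.25 over all genes. It was also found for 2 of 13 tested genes induced by FOXO transcription factors, 1 of 8 induced by low oxygen and 2 of 7 neutrophil markers. Of 7 clock genes it was found for *Per1* only, and in the remaining lists for 0. The median r was 0.76 over the neutrophil markers, 0.65 over 4 erythrocyte markers and -0.63 to 0.35 over the remaining lists. An r over 0.8 was thus not particular to glucocorticoid-induced genes. The log2 differences were 0.74 ± 0.28 for *Per1* (limma adjusted p = 0.705) and 0.55 ± 0.16 for *Nfkbia* (limma adjusted p = 0.494). Without replicate 1 labelled *Cnr1*-/- that of *Per1* was 0.55, without replicate 2 it was 0.57, and in both cases its nominal p was over 0.05. Without replicate 3 labelled *Cnr1*-/-, *Per1* was at 1.10 (limma adjusted p = 0.0906) and *Nfkbia* at 0.76 (limma adjusted p = 0.0334). *Nfkbia* was at 0.75 without replicate 3 labelled *Cnr1*+/+ (limma adjusted p = 0.0566), and at 0.42 without replicate 1 (limma adjusted p = 0.801). With either replicate 3 left out, these values passed both thresholds.

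*Mt1* and *Mt2*, metallothioneins that bind zinc and copper, were nearer to *Klf9* and *Fam107a*, with an r of 0.86 and 0.80 with the mean of this pair. *Mt1* was at 126, 118 and 86.5 cpm in the libraries labelled *Cnr1*+/+ and at 88.1, 137 and 161 cpm in those labelled *Cnr1*-/-, and the groups overlapped. Of the 18 genes, 1 had an r over 0.8 with this mean, against 1.92% of all genes, and the median was -0.11 over the 18 and -0.13 over all genes. The 3 most abundant genes of the list were *Mertk*, a receptor for apoptotic cells, *Glul*, glutamine synthetase, and *Rhob*. *Glul* was between 543 and 681 cpm and *Mertk* between 526 and 636 cpm, and their groups overlapped.

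**Figure D5:**
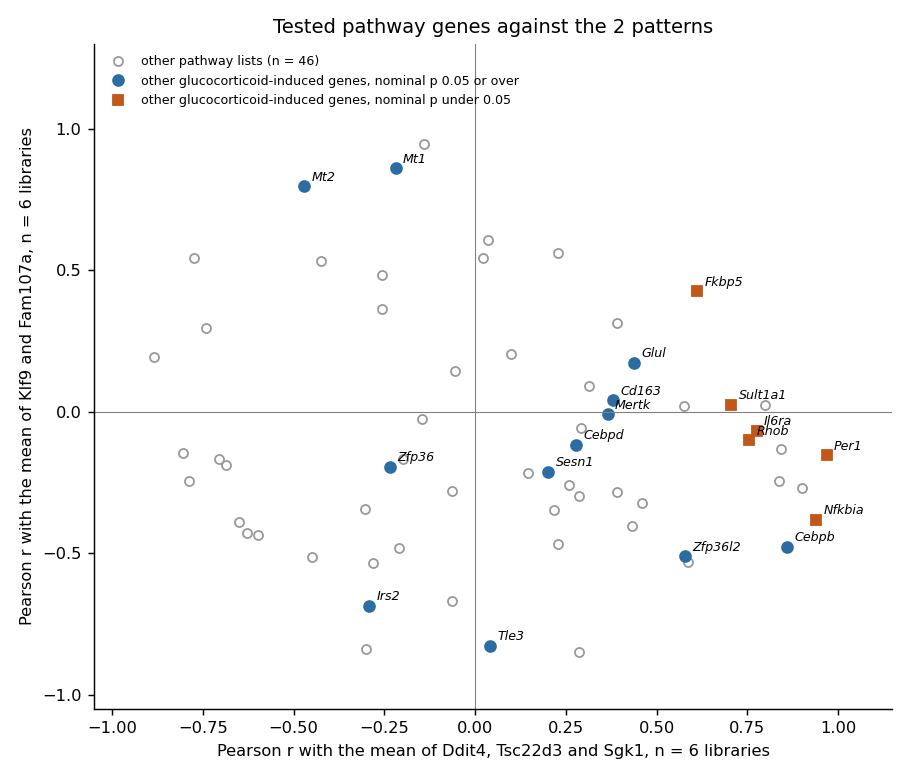
Pearson r over the 6 libraries of each tested pathway gene with the mean of *Ddit4*, *Tsc22d3* and *Sgk1* (x axis) and with the mean of *Klf9* and *Fam107a* (y axis). Filled symbols are the 18 other glucocorticoid-induced genes, squares those with a nominal p under 0.05 in limma, and open circles 46 genes of the other pathway lists. *Per1* and *Nfkbia* lie at the far right and *Mt1* and *Mt2* at the top left.

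The genes are also known to answer other pathways, whose remaining genes were examined in the same fit. Of 13 tested genes that FOXO transcription factors induce, 3 were higher with a nominal p under 0.05 and 1 was lower, where the shares over all genes were 5.09% and 0.931% for this list and those that follow. The higher ones were *Ccng2*, a cyclin, *Txnip*, an inhibitor of thioredoxin, and *Cdkn1b*, a cell cycle inhibitor, with log2 differences of 0.50, 0.31 and 0.35. *Foxo1* itself was the lower one, at -0.45. This count turned with the scaling, to 2 higher and 2 lower after centring and to 1 higher (*Ccng2*) and 2 lower (*Foxo1* and *Irs2*) after quantile normalisation and after rescaling, and it was 1 higher and 1 lower without the trend. *Ccng2* was at 21.4, 26.2 and 31.3 cpm in the libraries labelled *Cnr1*+/+ and at 37.3, 47.1 and 28.1 cpm in those labelled *Cnr1*-/-, with an r of 0.90 with the mean of *Ddit4*, *Tsc22d3* and *Sgk1*. Among 4 tested genes induced by p53, the list to which *Cdkn1a* is related, 0 were higher and 1 was lower, *Ccng1*, at -0.44. Of 5 tested genes of the ATF4 response and of 8 induced by low oxygen, to both of which *Ddit4* is related, 0 had a nominal p under 0.05 in either direction, although *Nupr1* of the ATF4 list was lower after each of the 3 scalings and without the trend (-0.64 to -0.52). Of 8 tested genes that rise during cell isolation, 1 was higher, *Rhob* (after quantile normalisation and rescaling 0 were higher, and after each of the 3 scalings *Ier5* was lower), and of 7 clock genes 1 was higher, *Per1*, and 1 was lower, *Tef*, at -0.32. In the fit of all 6 libraries, all limma adjusted p of these genes were 0.705 or more. For each of *Ccng2*, *Txnip*, *Cdkn1b*, *Foxo1*, *Ccng1* and *Tef*, leaving out at least 1 library moved the nominal p over 0.05. *Ccng2* was at 0.36 without replicate 1 labelled *Cnr1*+/+ and at 0.32 without replicate 2 labelled *Cnr1*-/-, and *Foxo1* at -0.34 without replicate 3 labelled *Cnr1*+/+ and at -0.31 without replicate 1 labelled *Cnr1*-/-. *Ccng1* was at -0.28 without replicate 3 labelled *Cnr1*+/+. *Atf3*, which is in the ATF4 and cell isolation lists, was below the filter on low values. Without that filter it had a nominal call as lower, at -1.53.

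The receptor and the proteins that hold it were measured beside its target genes. *Nr3c1*, the glucocorticoid receptor, was at 55.7, 77.8 and 71.9 cpm in the libraries labelled *Cnr1*+/+ and at 66.5, 79.5 and 64.3 cpm in those labelled *Cnr1*-/-. Its log2 difference was 0.04 ± 0.15 (SE of limma). Of 7 tested genes of this list 0 were higher and 1 was lower with a nominal p under 0.05, *Hspa8*, a constitutive chaperone, at -0.33 (limma adjusted p = 0.792). Without replicate 2 or 3 labelled *Cnr1*+/+ or replicate 1 labelled *Cnr1*-/- it was at -0.28, -0.25 and -0.25, and its nominal p was over 0.05. Without replicate 1 labelled *Cnr1*+/+ it was at -0.46 and 3 genes of the list were lower, and without replicate 3 labelled *Cnr1*-/- 2 were lower. The count of lower genes was 3 after centring, with *Hsp90aa1* and the co-chaperone *Stip1* added, and 4 after quantile normalisation and after rescaling, with *Hsp90ab1* added as well, and without the trend it was 1, *Stip1*. The median r of the 7 genes with the mean of *Ddit4*, *Tsc22d3* and *Sgk1* was -0.63, against 0.25 over all genes tested. *Hsp90aa1* and *Hsp90ab1*, which encode the main chaperone of the unbound receptor, had an r of -0.80 and -0.70 and were lowest in replicates 1 and 2 labelled *Cnr1*-/-, with 168 and 173 cpm for *Hsp90aa1* against 196 to 241 cpm elsewhere.

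Genes most like a mean of members were named by the highest r over the 6 libraries. For the mean of the 5 genes that passed the filter these were *Anapc16*, *Camk1d*, *Cast*, *Fbxl20*, *Msl2*, *Ndufaf8*, *Mindy2*, *Cdc123*, *Isca1* and *Rassf2*, with r between 0.96 and 0.99. This mean joins genes of both groups, whose median r was -0.07, so it is not a pattern that the members share. It was -0.24, -0.51 and -0.83 in the libraries labelled *Cnr1*+/+ and 0.57, 0.80 and 0.20 in those labelled *Cnr1*-/-. The genes named for it therefore follow the contrast between the labels. For *Ddit4*, *Tsc22d3* and *Sgk1* the 3 most alike were *Hax1*, *Stx4a* and *Araf*, with *Per1* next, and r between 0.97 and 0.99. For *Klf9* and *Fam107a* the 10 most alike were *Hvcn1*, *Scg3*, *Srrm1*, *Sez6*, *mt-Tn*, *Gstm1*, *Ptprm*, *mt-Td*, *Slc7a6os* and *Clu*, with r between 0.96 and 1.00. *Hvcn1*, a proton channel, was at 43.2, 42.9 and 34.5 cpm in the libraries labelled *Cnr1*+/+ and at 40.3, 42.5 and 47.1 cpm in those labelled *Cnr1*-/-. The lists for the 2 groups were drawn up after the groups had been seen, and all 6659 genes were compared with each mean over only 6 libraries.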

How the data were processed

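Processed values of 6 libraries, 3 labelled *Cnr1*+/+ and 3 labelled *Cnr1*-/-, were analysed. Per the labels and methods, the authors aligned reads to mm10 with STAR in Partek, assigned them to genes by expectation-maximisation and applied TMM scaling. The deposited values are CPM. Of values below 100 reads, 84.6% to 86.6% per library were whole multiples of 1 read within 0.02, too few for tests of counts, and listed genes held 50.1% to 59.1% of a library's scaled total. Groups came from sample titles. The methods describe littermates, but the labels do not tie mice to litters, so p-values measure the spread between these mice only. An exact permutation test of 3 against 3 cannot give a two-sided p below 0.1.

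Differences were fitted with limma 3.58.1 (R 4.3.3, lmFit and eBayes with trend, genotype as the only term) on log2 (cpm + 0.1) for genes averaging 10 cpm or more, with Benjamini-Hochberg adjustment over all 6659 genes, and steps were tested on simulated data. Limma on the log scale replaced the study's voom step. Counting intervals and limits (95%, exact Poisson, and 3 reads for a value of 0) cover counting error only. Members, 8 pathway lists and 10 marker lists were chosen with earlier results of these data known. Genes named are the members, list genes with a nominal p under 0.05, the 3 most abundant of a list and the 10 with the highest r with the members' mean. Others, among them *Cebpb*, *Mt1*, *Mt2*, *Slc1a2*, *Aqp4*, *Gja1*, *Nr3c1*, *Hsp90aa1*, *Hsp90ab1*, *Irs2*, *Ier5*, *Stip1*, *Nupr1*, *Atf3*, *Arntl*, *Per2*, *Btg2* and those alike to the 2 groups, were named after their values were seen. Among marker lists, 6 of 7 tested neutrophil, 4 of 4 erythrocyte, 1 of 2 monocyte and 1 of 3 astrocyte genes were higher with a nominal p under 0.05. The neutrophil, erythrocyte and monocyte sums were 3952, 2330 and 104 cpm in replicate 2 labelled *Cnr1*-/-, against at most 512, 237 and 33.1 cpm elsewhere. That library also enters the mean used by the filter, so nothing is read from the counts of these 3 lists. Of the other lists, 1 of 5 border macrophage and 1 of 5 oligodendrocyte genes were lower. Of 10 microglia and 1 endothelial gene 0 were called, while 0 lymphocyte and 0 neuron genes passed the filter. Gene positions are those of the files, with ends set 1 base lower, which matched GENCODE for 18674 of 18826 symbols. Alternatives were a pseudocount of 1, other scalings and filters, no trend, a replicate block and the omission of single libraries. Correlations and figures were made with Python 3.11.15 and matplotlib 3.10.9.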

Additional observations from a re-analysis of the deposited data

How the results depend on the processing

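With limma, 401 genes had a nominal p under 0.05. This count was 993 without a filter on low values, 263 with a minimum mean of 20, and between 251 (without replicate 2 labelled *Cnr1*-/-) and 600 (without replicate 3 labelled *Cnr1*+/+) with single libraries left out. The 6 genes with an adjusted p under 0.1 and a fold change over 1.5 became 14 without a filter and between 1 and 24 with single libraries left out: 14 without replicate 1, 1 without replicate 2 and 16 without replicate 3 labelled *Cnr1*+/+, and 24 without replicate 3 labelled *Cnr1*-/-. They became 0 with each library centred on its median, with quantile normalisation, with rescaling without mitochondrially encoded genes and without the trend, where 375, 360, 352 and 391 genes had a nominal p under 0.05 in limma. *Fkbp5* was thus not called under these settings after adjustment. The share of calls that were higher was 84.5% as deposited, 52.5% after centring, 45.3% after quantile normalisation and 40.3% after rescaling, with medians over all genes of 0.08, 0.01, -0.00 and -0.01 on the log2 scale. *Ddit4*, *Tsc22d3*, *Sgk1*, *Klf9* and *Fam107a* stayed above 0 under these scalings, where the other 4 members were not computed. Of the other glucocorticoid-induced genes, 4 to 7 had a nominal p under 0.05 in either direction over all alternatives, and 4 to 7 were higher. Of these, 6 of 7 were higher after centring and 4 of 5 after quantile normalisation and after rescaling, where the lower gene was *Irs2* (4 of 13 alternatives). *Fkbp5*, *Nfkbia* and *Sult1a1* had a nominal p under 0.05 in all 14, *Per1* in 11 of 13, *Rhob* in 9 and *Il6ra* in 8 of 14. Of the other pathway genes named, *Ccng2* and *Foxo1* did so in 12 of 14, *Hspa8* in 10, *Txnip*, *Ccng1* and *Tef* in 9 and *Cdkn1b* in 6. The adjusted p of *Fkbp5* ranged from 8.81e-06 to 0.825. The median r of the 5 members that passed the filter was between -0.34 and 0.15 with single libraries left out. After the data were seen, the same was done for both groups, giving 0.91 to 0.95 for *Ddit4*, *Tsc22d3* and *Sgk1* and 0.70 to 0.90 for *Klf9*, *Zbtb16*, *Cdkn1a* and *Fam107a*. The labels do not say whether replicate numbers pair the libraries. Deviations of same-numbered libraries from the mean of their label had an r of -0.06, -0.03 and -0.03. This cannot settle a shared litter or batch, because the deviations of 3 libraries per label depend on each other. With the replicate block, 421 genes had a nominal p under 0.05 and 8 passed both thresholds.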

Other observations

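The ATF4 list, which is related to *Ddit4*, held 1 gene among its 5 tested whose groups did not overlap, *Nupr1*, where groups did not overlap for 11% of all genes tested, in either direction. *Nupr1* and *Atf3* were singled out after their values were seen. *Atf3* was not tested in the fit of genes that passed the filter. In the fit without a filter it had a nominal call as lower, with a log2 difference of -1.53. *Atf3*, a stress-induced transcription factor with levels below the filter on low values, was at 6.36, 4.09 and 2.63 cpm in the libraries labelled *Cnr1*+/+ and at 2.49, 0.75 and 1.31 cpm in those labelled *Cnr1*-/-, and the groups did not overlap. The closest libraries of the labels held 25 and 23 reads of *Atf3*, with counting intervals of 1.70 to 3.88 cpm and 1.58 to 3.74 cpm. The gap between these closest libraries was thus within counting error. Other libraries were farther apart, with intervals of 4.70 to 8.40 cpm in replicate 1 labelled *Cnr1*+/+ and 0.32 to 1.47 cpm in replicate 2 labelled *Cnr1*-/-. *Nupr1*, a small nuclear protein induced by stress, was at 12.8, 10.2 and 12.4 cpm and at 8.12, 7.09 and 9.54 cpm, respectively, and its groups did not overlap either, but the intervals of its closest libraries (8.30 to 12.4 cpm and 7.56 to 11.9 cpm) overlapped as well. Replicate 2 labelled *Cnr1*-/- had the lowest value of both genes, whereas *Ddit4* was at 184 cpm there.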
